A study of Mus musculus with 8 samples.

Results

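Accessible chromatin was described at 8 genes of MHC class II presentation, Ciita, H2-Aa, H2-Ab1, H2-Eb1, Cd74, H2-DMa, H2-DMb1 and H2-DMb2, in bone marrow multipotent progenitors. ATAC-seq, in which the Tn5 transposase inserts adapters into open DNA, had been performed on 5000 sorted cells per library, with 2 libraries for each of 2 genotypes in MPP3 cells (LSK+ CD150- CD48+, myeloid-biased) and in MPP4 cells (in addition Flt3+, lymphoid-biased), 8 libraries in all. All mice were C57BL/6 and, by the sample labels, had floxed Ebf1 alleles. Controls (Ebf1WT) were labelled Ebf1fl/fl Tie2Cre +/+, which reads as no Cre, whereas the design text of the series names their Ebf1 alleles as wild type beside Tie2Cre. Mice labelled Ebf1fl/fl Tie2Cre +/cre (Ebf1KO) expressed Cre from the Tie2 promoter, which is also active in endothelium. By the labels the Ebf1WT MPP3 mice were 8 weeks old, the Ebf1KO MPP3 mice 8 and 9 weeks, the Ebf1WT MPP4 mice 9 weeks and the Ebf1KO MPP4 mice 8 weeks. In the Ebf1WT MPP4 group 1 of 2 mice was male and all other mice were female.

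One table of peaks was used for each cell type. A peak was taken as a member where its center fell within a listed gene or its flanks, 20 kb before the start and 10 kb past the end (GENCODE vM21), and no transcript of another gene was closer. Distance was taken to a transcript's start, midpoint or end, so a peak inside a listed gene could be assigned to another gene. This rule found 32 of 87642 MPP3 peaks and 33 of 86952 MPP4 peaks. The level of a peak is its mean log2 CPM, the log2 of the normalized fragment count (counts per 1e6 fragments in peaks), averaged over the 4 libraries of a cell type and both genotypes. Libraries and genotypes therefore cannot be told apart in these values, and no spread between libraries and no test could be given for any of them. Because long peaks collect more fragments, levels were compared per kb of peak, and because the tables were normalized separately they were compared as percentiles among all peaks of the same table. A low level in all cells and a higher level in few cells of the sorted population cannot be told apart.

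Class II molecules present peptides from endocytosed protein to CD4+ T cells and are made mainly by B cells, dendritic cells and macrophages. Their genes depend on CIITA, a coactivator that does not itself bind DNA but is recruited to class II promoters by RFX and CREB proteins at the X box and by NF-Y at the Y box. Ciita in turn has several promoters, of which promoter I is known from dendritic cells and macrophages, promoter III from B cells and plasmacytoid dendritic cells, and promoter IV from cells treated with interferon-γ. EBF1 is a B cell transcription factor that often binds near the E-box factor TCF3 (E2A).

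The X and Y boxes are shown first, because they are what the class II promoters share by sequence. An X box was searched as AG, 2 bases, AC, 1 base and GATG, followed on the same strand within 10 to 40 bases by the Y box core GATTGG. RefSeq promoter windows (GRCm38, 250 bases before to 50 after a start) were present for 5 of the 8 genes, in 6 windows, and not for Ciita, H2-Ab1 and Cd74. The exact pair was found in 4 of 32851 windows, or 0.0122%. H2-DMb1 and H2-Eb1 were among the 4, with H2-Eb2, another class II beta chain gene, and Scgb2b20. With 1 mismatch allowed in the X box the pair was found in 48 windows and H2-DMb2 was added. Neither of the 2 H2-DMa windows held the pair, and the H2-DMa stretch shown was read from the genome at a member peak over a start further downstream. Below, capitals mark the X box and, where shown, the Y box, 5′ to 3′. H2-DMb1 and H2-DMa are cut to 30 bases around the X box, since GENCODE places both stretches in an untranslated exon. Only the Y box is marked in H2-Aa, whose window held no match to the X box pattern.
H2-Eb1 (chr17:34305765-34305827, + strand): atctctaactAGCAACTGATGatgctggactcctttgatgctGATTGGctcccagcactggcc
H2-DMb1 (chr17:34153086-34153115, + strand): aggtttacctAGTAACTGATGatgctaggc
H2-DMb2 (chr17:34145115-34145178, + strand): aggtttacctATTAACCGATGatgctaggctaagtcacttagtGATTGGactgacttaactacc
H2-DMa (chr17:34135503-34135532, + strand): gcttctcctcAGCGACTGATGatgttaaac
H2-Aa (chr17:34287852-34287917, - strand): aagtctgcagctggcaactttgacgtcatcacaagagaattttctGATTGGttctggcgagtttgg

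The H2-DMb1 and H2-DMb2 stretches were equal at 55 of 64 positions, and the X box of H2-DMb2 carried G2T against the pattern, counted from the first base of the box. These genes encode near-identical beta chains, so reads can be shared between their copies and the levels of both are less certain. The Y box began 22 bases after the X box in H2-DMa, H2-DMb1 and H2-DMb2, and 21 bases after it in H2-Eb1.

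In the peaks, the exact pair was found in 14 MPP3 peaks (0.0160%) and in 13 MPP4 peaks (0.0150%). Of these, 5 in each cell type lay in the windows of the listed genes, and 3 were member peaks, at the starts of H2-DMa, H2-DMb1 and H2-Ab1. The others were at the starts of H2-Eb1 and H2-Eb2. All 5 were called in both MPP3 and MPP4 cells. The X box lay 60 bp before the next annotated start of H2-Ab1, 92 bp before that of H2-Eb1 and 115 bp before a start of H2-DMa. At H2-DMb1 the pair lay downstream of the GENCODE start and upstream of the RefSeq start.

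Ciita, the coactivator gene, had the lowest median level per kb of the 8 genes in both cell types, and its peaks differed between the cell types at the transcript starts. GENCODE gives Ciita (chromosome 16, + strand) starts in 3 groups, at chr16:10480059-10480164, chr16:10488178-10488279 and chr16:10489746-10489783. Promoters I, III and IV are known to lie in this order, but matching them to the start groups rests on the order alone. The first group had no peak within 1 kb in either cell type. The second group had a peak only in MPP4 cells (chr16:10487959-10488288), with a mean log2 CPM of 2.42, at percentile 45.2 of all MPP4 peaks. The nearest MPP3 peak was 1454 bp away from a start of that group.

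The third start group was covered by a peak in both cell types. In MPP3 cells it (chr16:10489604-10489861) had a mean log2 CPM of 1.38 and lay at percentile 10.3, and in MPP4 cells (chr16:10489609-10489823) it had 1.56 and lay at percentile 36.2. The peak was 258 bp long in MPP3 and 215 bp in MPP4 cells, so the difference of 25.9 percentile points per kb was taken over unequal lengths. By the mean log2 CPM as deposited, without division by length, the peak lay at percentile 23.7 in MPP3 and 28.8 in MPP4 cells, a difference of 5.06 points. The strongest Ciita peak in both cell types was an intronic one, 35297 bp downstream of the nearest start in MPP3 cells (chr16:10524922-10525237), at percentile 70.0 there and at 71.1 in MPP4 cells.

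Of 5 Ciita peaks in MPP3 cells, 4 were shared by position with MPP4 cells, and of 7 in MPP4 cells, 3 were found there only. These counts and the Ciita medians leave out 3 peaks in each cell type that were assigned to Dexi. They lay between the third start group and the strongest Ciita peak. Their percentiles were 8.76 to 60.7 in MPP3 and 47.1 to 68.9 in MPP4 cells. The remaining Ciita peaks found in a single cell type were, like the one at the second start group, below the median of their table. They were an intronic MPP3 peak 19116 bp from the nearest start at percentile 39.7, an MPP4 peak 3952 bp upstream of the first start at percentile 27.8, and an intronic MPP4 peak at percentile 6.82. Per kb, the 4 shared Ciita peaks ranked higher in MPP4 than in MPP3 cells, by 1.05 to 25.9 percentile points. This did not hold without division by length. By the mean log2 CPM as deposited, 3 of them ranked higher in MPP4 cells, by 2.1 to 11.4 points, and the peak at chr16:10495967-10496317, 351 bp long in MPP3 and 252 bp in MPP4 cells, ranked lower there (percentiles 43.9 and 26.2, a difference of -17.7 points).

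**Figure D1:**
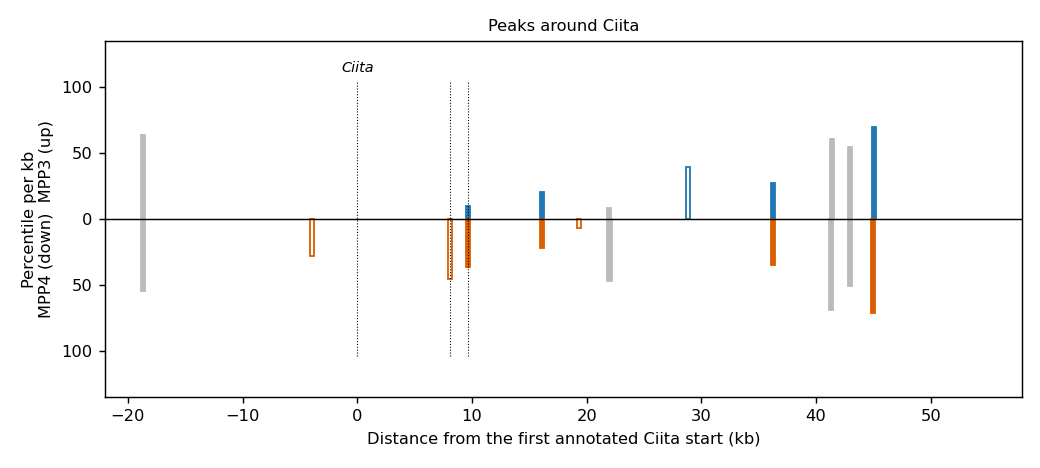
Peaks around Ciita by distance from its first annotated start (x axis, kb). Bars give the level per kb as a percentile of all peaks of the table, MPP3 upward in blue and MPP4 downward in orange. Open bars were found in that cell type only, grey bars were assigned to a neighboring gene, and dotted lines are the 3 groups of transcript starts. The second start group had a peak only in MPP4 cells, at percentile 45.2.

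The classical chain genes encode single chains of the class II heterodimers, H2-Aa and H2-Ab1 the alpha and beta chains of I-A and H2-Eb1 the beta chain of I-E. H2-Aa had 1 peak at its starts, in both cell types. Its level was percentile 82.5 in MPP3 cells (mean log2 CPM 3.64, chr17:34287761-34288066) and percentile 88.9 in MPP4 cells (4.23). An additional MPP3 peak downstream of H2-Aa was weak, at percentile 18.7.

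H2-Ab1 had 5 MPP3 peaks and 3 MPP4 peaks. The strongest in both was at the start of a noncoding transcript (chr17:34257642-34258005 in MPP3), at percentile 85.5 in MPP3 and 89.8 in MPP4 cells. The peak at the main group of starts, which holds the X and Y boxes, lay at percentile 76.2 in MPP3 (chr17:34263045-34263314) and 68.9 in MPP4 cells, and by the mean log2 CPM as deposited at 69.6 and 72.1, so its order depends on the scaling by length. Another shared peak, 857 bp into the gene in MPP3 cells, lay at percentile 81.1 in MPP3 and 60.8 in MPP4 cells. This was a difference of -20.3 percentile points, and of -18.5 points by the mean log2 CPM as deposited.

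Both H2-Ab1 peaks found only in MPP3 cells were above the median of all MPP3 peaks. The first (chr17:34261522-34261854) lay 1521 bp upstream of the main starts at percentile 61.7 and held, on the opposite strand to the gene, an X box with 1 mismatch (T10A) followed by a Y box. The second (chr17:34265029-34265250) lay 1809 bp downstream of the main starts in a noncoding exon, at percentile 66.7, and is printed further on with its EBF1 consensus. The mirrored X and Y boxes are shown because no other member peak found in only 1 cell type held such a pair.
H2-Ab1 upstream (chr17:34261670-34261733, - strand): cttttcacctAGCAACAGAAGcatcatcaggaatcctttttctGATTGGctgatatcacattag

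H2-Eb1 had 3 member peaks in each cell type, all in introns, at percentiles 36.5 to 57.8 in MPP3 and 42.7 to 54.7 in MPP4 cells. The peak over its main starts was not a member, because the overlapping annotation Gm20513 was closer. That peak had a level of percentile 74.6 in MPP3 cells (mean log2 CPM 3.26, chr17:34305626-34305940) and 80.7 in MPP4 cells (3.87). Between H2-Aa and H2-Eb1, and likewise assigned to Gm20513, lay a peak at percentile 92.4 in MPP3 cells (chr17:34293523-34293948) and 98.2 in MPP4 cells. It was 5913 bp from the nearest H2-Aa start in MPP3 cells and ranked above every H2-Aa, H2-Ab1 and H2-Eb1 member peak in both.

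Cd74, the invariant chain that fills the groove of new class II molecules, had 5 peaks in each cell type, and all were shared by position. The peak at its starts, 160 bp upstream in MPP3 cells, lay at percentile 66.9 in MPP3 (mean log2 CPM 2.29) and 62.4 in MPP4 cells (2.36). Both intronic peaks ranked above it. The peak with the highest level per kb was 1999 bp from the nearest start in MPP3 cells, at percentile 81.2, and 3438 bp from it in MPP4 cells, at percentile 84.4. Cd74 thus had its strongest peaks inside the gene and not at its starts.

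H2-DMa and H2-DMb1 or H2-DMb2 form H2-DM, which exchanges the invariant chain fragment for antigen peptides. These genes held all 3 MPP3 and all 4 MPP4 member peaks above percentile 90. At H2-DMa the peak with the X and Y boxes (chr17:34135255-34135822 in MPP3) had a mean log2 CPM of 6.15 in MPP3 and 5.94 in MPP4 cells, at percentiles 97.6 and 97.9. It covered the start of 2 coding transcripts inside the longer gene. The 2 upstream groups of H2-DMa starts also had strong peaks, at percentiles 98.6 and 96.2 in MPP3 cells, but these were closer to Brd2 and are not members. An intronic H2-DMa peak lay at percentile 90.9 in MPP3 and 76.4 in MPP4 cells.

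H2-DMb2 had the highest-ranking member peak in MPP4 cells. It covered the first start (chr17:34142962-34143431), with a mean log2 CPM of 6.20 at percentile 99.0, against 5.66 at percentile 96.6 in MPP3 cells. Next to it MPP4 cells had another 2 peaks that were not called in MPP3 cells, at percentile 93.3 (chr17:34142540-34142737, mean log2 CPM 3.96) and at percentile 72.8 (chr17:34141571-34141725, 2.28). MPP3 cells instead had a peak not called in MPP4 cells before the second group of H2-DMb2 starts (chr17:34144800-34145089), with a mean log2 CPM of 2.94 at percentile 69.8. The X box of the printed H2-DMb2 stretch began 36 bp beyond the end of this peak. H2-DMb2 thus had a called peak at its first start in both cell types and near its second start in MPP3 cells only.

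The peak at the coding start of H2-DMb1 lay at percentile 54.2 in MPP3 (mean log2 CPM 3.20) and 47.4 in MPP4 cells (3.11). H2-DMb1 had its highest-ranking peak downstream of the gene, at percentiles 81.4 and 76.4. Another downstream peak (chr17:34164563-34164743 in MPP3) lay at percentile 64.6 in MPP3 and 24.5 in MPP4 cells, a difference of -40.1 percentile points. This peak was 181 bp long in MPP3 and 320 bp in MPP4 cells, so the level per kb was taken over unequal stretches, and its mean log2 CPM was 2.07 and 1.88, a difference of -7.84 percentile points without division by length.

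**Figure D2:**
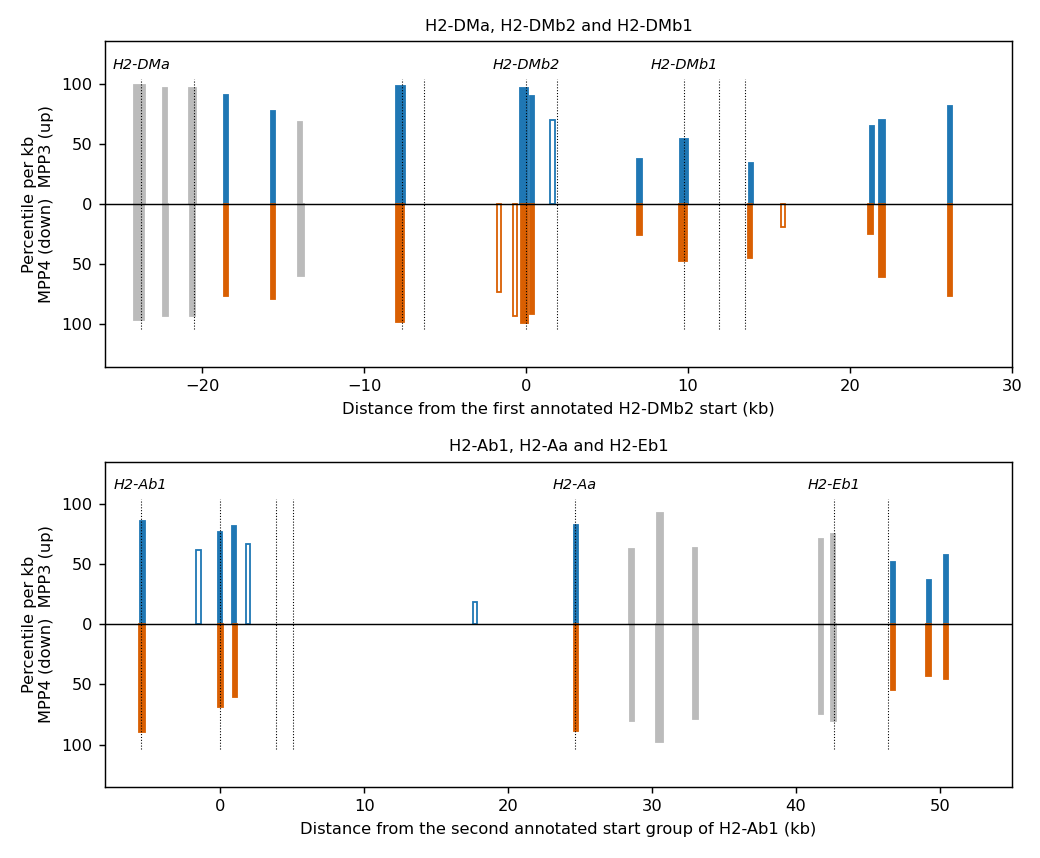
Peaks around the class II chain and H2-DM genes by distance from an annotated start (x axis, kb), with level per kb as a percentile of all peaks of the table, MPP3 upward and MPP4 downward. Open bars were found in that cell type only, grey bars were assigned to other genes and dotted lines are groups of transcript starts. The peak at the first H2-DMb2 start reached percentile 96.6 in MPP3 and 99.0 in MPP4 cells.

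Across the 8 genes, the member peaks spanned nearly the whole range of levels. In MPP3 cells they ran from percentile 10.3 to 97.6 with a median of 66.8, and 23 of 32 were above the median of the table. In MPP4 cells they ran from percentile 6.82 to 99.0 with a median of 60.7, and 19 of 33 were above it. Ciita had a median percentile of 27.2 in MPP3 and 35.2 in MPP4 cells, and H2-Eb1 of 51.7 and 45.2. H2-DMa stood at the other end in MPP3 cells (90.9) and H2-DMb2 in MPP4 cells (91.2). The genes have 1 to 7 peaks each, and the order of their medians carries no error.

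**Figure D3:**
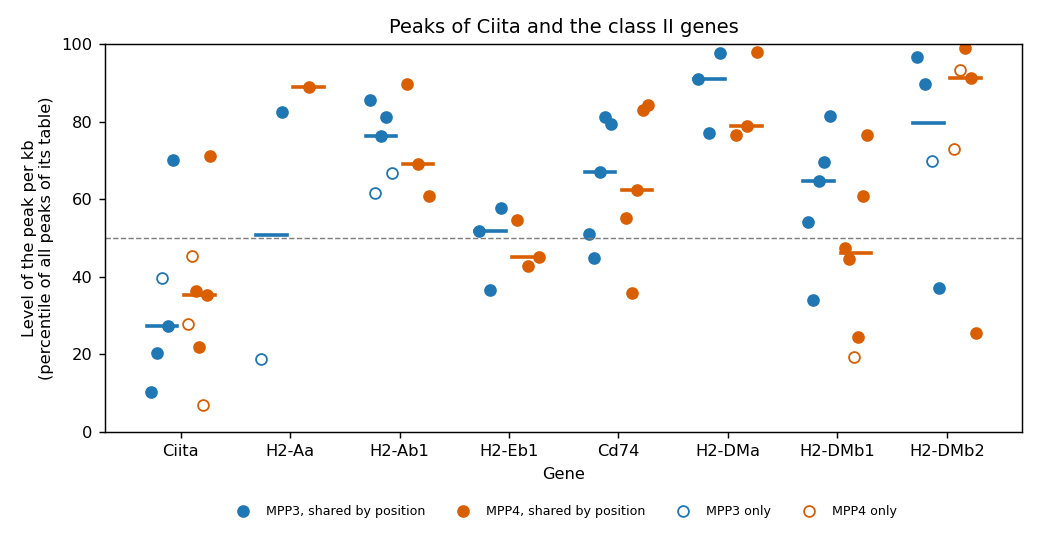
Level per kb of each member peak (y axis, percentile of all peaks of its table) by gene (x axis), with MPP3 in blue and MPP4 in orange. Filled points are shared by position, open points were found in that cell type only, and short lines are medians. The Ciita peaks lie at or below percentile 71.1 while H2-DMa and H2-DMb2 reach above 97.

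Of the 20 groups of annotated starts of the 8 genes, 14 had a peak within 1 kb in MPP3 cells and 14 in MPP4 cells. Every listed gene had a peak within 1 kb of some start in both cell types, against 67.5% of all protein-coding genes in MPP3 and 67.3% in MPP4 cells. The listed genes have up to 4 groups of starts each, and a gene with more starts has more chances of such a peak. The share over all protein-coding genes was not matched for the number of starts. Of the member peaks, 13 of 32 in MPP3 (40.6%) and 14 of 33 in MPP4 cells (42.4%) were within 1 kb of a start, where 26.8% of all MPP3 peaks and 27.1% of all MPP4 peaks were. The rule favors such peaks, since it takes only peaks in or near genes. By the center of the peak, 19 MPP3 and 18 MPP4 members were intronic, and no center fell in a coding exon.

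Most member peaks were found in both cell types. Of the MPP3 members 27 of 32 (84.4%) overlapped an MPP4 peak by at least 1 bp, against 75.7% of all MPP3 peaks. Of the MPP4 members 27 of 33 (81.8%) overlapped an MPP3 peak, against 76.7% of all MPP4 peaks. Sharing depends on level, and among all peaks in the same bins of mean log2 CPM as the members 84.8% of MPP3 and 82.2% of MPP4 peaks were shared. The members were therefore shared about as often as other peaks of their level. The 5 MPP3-only members had a median percentile of 61.7, where all MPP3-only peaks had 19.8. The 6 MPP4-only members had 36.5, where all MPP4-only peaks had 21.0.

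At the 27 shared positions, the rank per kb was higher in MPP4 cells for 16 and higher in MPP3 cells for 11. The median difference was 1.54 percentile points in the direction of MPP4, and over all 66324 shared pairs it was -0.62. The middle 80% of all pairs lay between -16.1 and 14.9, and 3 of the 27 members were outside. These were the third Ciita start group on the side of MPP4, and the H2-DMb1 downstream peak and the intronic H2-Ab1 peak on the side of MPP3. By the mean log2 CPM as deposited the rank was higher in MPP4 cells for 13 and in MPP3 cells for 14, and 3 members again lay outside the middle 80% (-15.1 to 15.2), of which only the intronic H2-Ab1 peak was outside on both scales. With no value per library, none of these differences could be set against a spread between replicates.

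**Figure D4:**
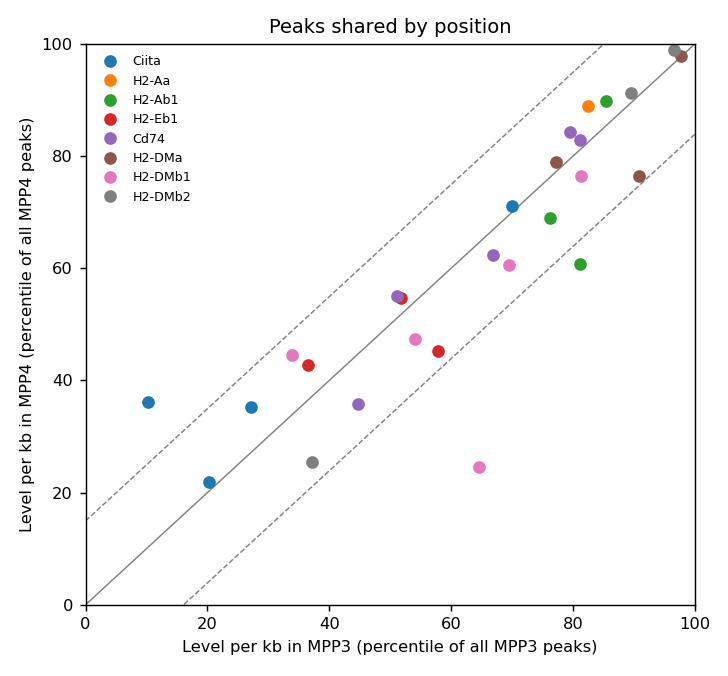
Level per kb of the 27 member peaks shared by position, as a percentile of all MPP3 peaks (x axis) and of all MPP4 peaks (y axis). The solid line is equality and the dashed lines enclose the middle 80% of all 66324 shared pairs. A Ciita peak lies above the band, and an H2-DMb1 and an H2-Ab1 peak lie below it, of which only the H2-Ab1 peak was outside the band without division by length.

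The EBF1 consensus was searched as TCCCNNGGG or CCCNNGGGA on both strands, which can overlap in 1 palindromic site. It was present in 2 of 32 MPP3 members, against 7.46% of all MPP3 peaks and 6.51% of those within 10% of the members' lengths. It was present in 0 of 33 MPP4 members, against 6.49% of all MPP4 peaks and 5.56% at like length. The count over the members was thus near that of other peaks in MPP3 cells. These counts leave out peaks in the windows of the listed genes that were assigned to Dexi, Brd2 and CR974462.4. Such peaks held the consensus in both cell types, in MPP3 cells at chr16:10522961-10523110, chr17:34119092-34119805 and chr17:34129252-34129493. The absence of the consensus in MPP4 cells therefore holds for the members only. Both MPP3 members with the consensus were peaks not called in MPP4 cells, at H2-DMb2 and at H2-Ab1. Both also held an E-box (CAGGTG or CAGCTG, both strands), 203 bases from the EBF1 consensus at H2-DMb2 and 150 bases from it at H2-Ab1. An E-box was present in 38.7% of all MPP3 peaks. Shares of the consensus, or of both motifs together, among all MPP3-only peaks were not computed. These 2 peaks therefore show no link of the motifs to MPP3 cells. The H2-Ab1 peak is printed whole, on the + strand, with EBF1 consensus and E-box in capitals, to show how these sites lie in it.
H2-Ab1, MPP3 only (chr17:34265029-34265250): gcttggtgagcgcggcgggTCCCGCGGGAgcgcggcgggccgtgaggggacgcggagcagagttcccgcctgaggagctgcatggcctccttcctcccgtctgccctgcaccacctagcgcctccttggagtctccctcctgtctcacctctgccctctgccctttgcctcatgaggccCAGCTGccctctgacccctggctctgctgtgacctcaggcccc

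In the H2-DMb2 peak the EBF1 consensus was near the end of the peak that faces the second start. In the H2-Ab1 peak it was a palindrome that matched on both strands, in a stretch of high GC content (70.3% over the peak). A match to a consensus is a description of these letters and not of binding. Neither gene's MPP3-only peak says in which genotype it was called, since peaks of both genotypes were joined.

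E-boxes were present in 10 of 32 MPP3 members (31.3%), against 38.7% of all MPP3 peaks, and in 10 of 33 MPP4 members (30.3%), against 40% of all MPP4 peaks. Of these, 3 MPP3 and 4 MPP4 peaks belonged to Ciita, and the MPP4-only peak at the second Ciita start group held 2. That peak also held an ETS-IRF composite, searched as GGAA and GAAA separated by 2 bases, which is a site for PU.1 with IRF4 or IRF8. The peak over the third Ciita start group held an ISRE-like element (GAAA and GAAA separated by 2 bases) and a GAS element (TTCNNNGAA), sites known for IRF and STAT factors, in both cell types. The H2-DMb2 peak found in MPP3 cells likewise held both.

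Of the other motifs, the ETS-IRF composite was present in 3 MPP3 members (9.38%) and 5 MPP4 members (15.2%), at Cd74, H2-DMb2 and, in MPP4 cells, Ciita. At like length 3.66% and 4.41% of all peaks held it. The Y box core, with or without an X box, was present in 8 MPP3 members (25%) and 7 MPP4 members (21.2%), against 8.89% and 8.91% at like length. These include the 3 members in each cell type that held the exact pair. The GAS element was present in 4 MPP3 members (12.5%) and 2 MPP4 members (6.06%), against 6.95% and 7.46% at like length, and the ISRE-like element in 2 and 1 members (6.25% and 3.03%), against 3.61% and 4.50%. The PU.1 site GAGGAAGT was present in 2 members in each cell type, at Cd74 and H2-DMb1, or 6.25% and 6.06%, against 9.55% and 10.6% at like length. The counts are small, and many of the members are the same DNA in both tables.

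Among other genes of the pathway, those for the factors at the X and Y boxes were open at their starts, in contrast to the weak starts of Ciita. All 7 of them (Rfx5, Rfxank, Rfxap, Nfya, Nfyb, Nfyc and Creb1) had a start peak in both cell types, with a median of the strongest start peaks at percentile 95.2 in MPP3 and 94.4 in MPP4 cells. The highest was at Nfya, an NF-Y subunit, in MPP3 cells (99.5) and at Creb1 in MPP4 cells (99.1). For the 8 listed genes the same median was 78.6 in MPP3 and 84.8 in MPP4 cells. In these lists a start peak was taken whichever gene it was assigned to. The start peaks used for Rfxank, H2-Eb1 and, in MPP3 cells, H2-DMa were assigned to other genes. The lowest of the 8 was Ciita in both, at 10.3 and 45.2.

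The other class II chain genes, H2-Oa, H2-Ob and H2-Eb2, all had start peaks in both cell types. H2-Ob, the beta chain of the H2-DM inhibitor H2-O, was highest at percentile 87.3 in MPP3 and 87.5 in MPP4 cells. Of 5 antigen processing genes, Ctss (cathepsin S) and March1, a ubiquitin ligase for class II, had no start peak in MPP3 cells, and Ifi30, a thiol reductase, had none in MPP4 cells. Lgmn, a lysosomal protease, was highest in both, at 92.6 and 93.4. All 9 class I genes had start peaks in both cell types, with a median of 95.2 in MPP3 and 94.2 in MPP4 cells. Tap1 and Psmb9 had the same start peak, which was counted for both and lay at these medians. The highest were Tapbp in MPP3 cells (99.2) and H2-K1 in MPP4 cells (98.7).

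The labelled cell types were compared with their marker genes by the strongest peak within 1 kb of a start. Of 5 progenitor markers, 4 had one in MPP3 and 5 in MPP4 cells, and Flt3 ranked at percentile 97.7 in MPP3 and 99.5 in MPP4 cells. Of genes of cells known to express class II, Pax5 had a start peak in both (92.4 and 88.9) and Cd79a only in MPP3 cells (66.1). Of 4 dendritic cell markers, Xcr1 had none in either cell type, and the others ranked from 38.9 to 71.4 in MPP3 and from 71.4 to 78.7 in MPP4 cells. Ly6g, Csf1r, Cd3e, Cd8a and Klf1 had no start peak in either. Whether admixed cells of these types contributed to the class II peaks was not tested.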

How the data were processed

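ATAC-seq had been performed on 8 libraries. Per the labels and the study's methods, the authors trimmed reads with cutadapt 2.10, mapped them to mm10, removed duplicates, poorly mapped reads and long fragments, and called peaks with MACS2 2.2.7.1 on the merged replicates of each condition. Peaks of both genotypes were joined within each cell type and fitted with edgeR 3.32.0 in R 4.0.3. The authors deposited, for each peak, its position and the mean log2 CPM of that fit, which were used here. They also deposited the log2 fold change, F statistic, p-value and FDR of their own comparison of genotypes, which were not used. The tables hold no values per library, so depth per library is unknown from them, and no test was made. CPM summed to 1.03e+06 in both tables.

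Peak starts were counted from 1. Genes were assigned with GENCODE vM21, sequence was read from GRCm38 and promoters from RefSeq. The percentile of a peak is that of log2 CPM minus log2 of its length in kb. Peaks sharing at least 1 bp were matched by the largest overlap. Start groups joined starts within 500 bp. Promoter windows of the RefSeq table replaced the planned upstream windows. The steps were tested on simulated data. Python 3.11.15, numpy 2.4.6, pandas 2.3.3, scipy 1.17.1 and matplotlib 3.10.9 were used.

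Members, lists and comparisons were chosen with earlier results of these data known. The genes named were the 8 members, with the peak nearest each annotated start, the highest peak per kb, and each peak found in 1 table only above the median of that table. Of the pathway lists, genes without a start peak and the highest gene were named. Other features singled out, such as peaks assigned to Gm20513, motif matches and weaker peaks, were chosen after their values were seen. Alternatives were other windows, level floors, overlap minimums and motif definitions. Some marker and sequence results are not reported here.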

Additional observations from a re-analysis of the deposited data

How the results depend on the processing

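Of 33 alternatives over 14 results, 30 stayed within 1.5 times the count or within the 95% binomial interval of the share or median. These intervals are wide and treat neighboring peaks as independent, so staying within them is a weak check. The MPP3 share at starts, 40.6%, was 56.25% with starts within 2.5 kb. That still counted as staying within its interval of 25.5% to 57.7%. With every peak in the windows of the listed genes counted, whichever gene was closest, an alternative chosen after seeing the data, there were 55 MPP3 and 56 MPP4 peaks. Their median percentiles were 66.9 and 65.6, and 89.1% and 87.5% were shared. With the longer Y box CTGATTGG the promoter pair was found in 1 listed gene, H2-Eb1, and with 1 mismatch in the X box in 3. The median percentile difference between MPP4 and MPP3 cells at shared peaks, 1.54, was -0.51 with the mean log2 CPM as deposited, so its sign depends on the scaling by length. No paired analysis was possible because the tables hold no values per library and no result comes from a test. For the same reason no replicate could be left out, and what depth limits could not be measured.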
